A study of Mus musculus with 9 samples.

Results

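Amino acid transporter genes were followed in mouse bone marrow-derived macrophages (BMDMs) after treatment with tenascin C (TNC), an extracellular matrix glycoprotein that can engage Toll-like receptor 4 (TLR4). The set held every gene whose annotated symbol begins with Slc1a, Slc3a, Slc6a, Slc7a, Slc36a, Slc38a or Slc43a, apart from Slc7a2 and Slc7a11, and this gave 61 of the 18193 genes measured. Of the 61, 7 were Slc1a, 2 Slc3a, 21 Slc6a, 14 Slc7a, 5 Slc36a, 9 Slc38a and 3 Slc43a genes. The symbol rule also took in 3 genes that are not carriers, Slc6a19os, Slc36a1os and Slc7a6os, whose names mark them as opposite-strand neighbours of a carrier gene. They were counted as members and none was called in any comparison.

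All 9 arrays came from bone marrow of BALB/c mice aged 8 to 10 weeks. The cells were differentiated for 7 days with macrophage colony-stimulating factor (M-CSF) and 10% serum, then held overnight in 1% serum with M-CSF. The labels give M-CSF as 20 µg/ml, where the study's methods give 20 ng/ml for culture and 20 µg/ml for the overnight step. TNC + TLR4i cells received 3 µM TAK-242, a small-molecule inhibitor of TLR4, for 1 h and then 2 µg/ml recombinant TNC for 6 h (n = 3). TNC + vehicle cells received 0.1% DMSO for 1 h and then the same TNC (n = 3). Untreated cells carry no named addition in the labels (n = 3), so the effects of TNC and of DMSO cannot be told apart in the contrast with them, and no inhibitor-alone or endotoxin control was analysed here. The replicates are labelled biological, without saying whether they came from separate mice, so the tests measure the spread between these cultures only.

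Amino acid carriers are grouped by sequence into solute carrier families. Slc7a proteins of the light chain type reach the cell surface only when joined to a heavy chain, Slc3a2 (CD98) or Slc3a1 (rBAT), and then exchange large neutral or cationic amino acids, whereas Slc38a and Slc1a carriers take up small neutral amino acids, glutamine or glutamate with sodium. Slc43a2 moves branched-chain and other large neutral amino acids down their gradient, and Slc36a carriers couple small amino acids to protons and act largely at the lysosome. Slc6a carriers import taurine, creatine, glycine, betaine or neurotransmitters, among other substrates. In macrophages, amino acid supply is sensed at the lysosome by the kinase complex mTORC1 and supports cytokine synthesis and nitric oxide production.

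The probe set values are log2 signals after robust multiarray averaging (RMA), so that a difference of 1 is a doubling, and each gene was read by its brightest probe set. A gene was called when its limma adjusted p was under 0.05 and its change at least 1.5-fold. Of the 61 members, 31 had a mean signal over the 9 arrays at or above 6.72, the median over all probe sets, and the other 30 lay below it and are called dim here. A low signal on these arrays does not separate a weakly expressed gene from one that is not expressed, and folds near that floor are understated. Signals of different probe sets were not ranked against each other.

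The arrays had medians between 6.72 and 6.74. The 8 macrophage markers measured, among them Csf1r and Adgre1, were all above the probe set median, with array means of 12.40 to 12.47 in TNC + TLR4i, 12.55 to 12.63 in TNC + vehicle and 12.48 to 12.51 in untreated arrays. Fibroblast markers were also well above it, 6 of 6 genes, with array means of 10.05 to 10.32 in TNC + TLR4i, 10.16 to 10.49 in TNC + vehicle and 10.24 to 10.38 in untreated arrays. Neutrophil markers were above it in 4 of 7 genes (6.98 to 7.18 in TNC + TLR4i, 7.05 to 7.43 in TNC + vehicle and 7.01 to 7.53 in untreated arrays), and B cell markers in 2 of 4. The T cell (1 of 4), dendritic cell (1 of 5), NK cell (0 of 4), mast cell (0 of 5) and erythroid (0 of 3) lists were mostly or wholly under it. Endothelial markers were above it in 1 of 6 genes (Esam), counted like the other lists by each gene's mean over all arrays. Their array means were 6.31 to 6.35 in TNC + TLR4i and 6.40 to 6.43 in untreated arrays. They were 7.42 in TNC + vehicle replicate 1 against 6.45 in the lowest TNC + vehicle array. By TNC + vehicle group means, Cdh5 (7.00), Pecam1 (6.77), Cldn5 (6.95) and Esam (7.26) were above the probe set median. These means include replicate 1, the highest array of that group for the list, so they need not hold in each array. Tek (6.11) and Emcn (6.63) were below it. In the other groups only Esam was above it (6.75 in TNC + TLR4i and 6.86 in untreated cells). In such bulk cultures, fewer cells of a type and less RNA per cell cannot be told apart, and the part of these other cells in the members' values was not tested.

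Promoter sequences are shown for genes on which the comparisons turned, 1 that rose with TNC (Slc7a8) and 2 that fell (Slc36a1 and Slc43a2). They run 5′ to 3′ over 300 bases, 250 before and 50 after an annotated start site, and were taken from RefSeq on GRCm38.p6, at chr14:54781837-54782136 on the minus strand for Slc7a8, chr11:55204090-55204389 on the plus strand for Slc36a1 and chr11:75531444-75531743 on the plus strand for Slc43a2, whose table entry also holds a second start site that is not printed. Capitals mark matches to CACGTG, the E-box bound by basic helix-loop-helix factors.
Slc36a1: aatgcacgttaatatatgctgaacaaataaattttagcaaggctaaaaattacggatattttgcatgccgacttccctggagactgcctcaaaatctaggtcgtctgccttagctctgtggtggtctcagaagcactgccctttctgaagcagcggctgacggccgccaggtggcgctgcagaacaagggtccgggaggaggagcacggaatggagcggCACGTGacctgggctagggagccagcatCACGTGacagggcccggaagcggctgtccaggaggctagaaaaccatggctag
Slc7a8: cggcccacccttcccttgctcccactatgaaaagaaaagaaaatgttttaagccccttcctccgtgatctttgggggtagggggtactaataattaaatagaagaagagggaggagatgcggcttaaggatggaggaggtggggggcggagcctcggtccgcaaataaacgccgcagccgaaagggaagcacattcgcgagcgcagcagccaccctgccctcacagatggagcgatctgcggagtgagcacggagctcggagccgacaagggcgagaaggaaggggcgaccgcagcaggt
Slc43a2: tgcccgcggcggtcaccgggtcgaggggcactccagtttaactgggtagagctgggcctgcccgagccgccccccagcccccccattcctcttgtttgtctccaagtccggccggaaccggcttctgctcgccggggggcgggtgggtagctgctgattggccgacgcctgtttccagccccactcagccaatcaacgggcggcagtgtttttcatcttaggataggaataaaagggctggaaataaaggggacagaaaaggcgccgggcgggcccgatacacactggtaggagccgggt

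Promoters were at hand for 45 of the 61 members, 4 of them members that were called in some comparison (Slc36a1, Slc38a6, Slc43a2 and Slc7a8). Both strands were searched for 3 motifs. CACGTG was found in 9 of the 45 (20.0%) and in 8.09% of all genes with a promoter. Among the 4 called members it was found in 1, Slc36a1, whose matches begin 31 and 3 bases before the start site, so that the second spans it. TGATGNAA, a response element for C/EBP and ATF factors, was found in 3 of the 45, Slc1a4, Slc6a21 and Slc7a7 (4.51% of all genes), and the NF-kB motif in 2, Slc6a12 and Slc6a13 (1.89% of all genes). Neither was found in the 4 called members, and other forms of the NF-kB motif were not searched. These are matches of letters and not measured binding.

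The first comparison asked how TNC changed the expression of amino acid carriers. In TNC + vehicle relative to untreated macrophages, 1 member rose, the neutral amino acid exchanger Slc7a8, and 4 fell, the lysosomal carrier Slc36a1, the large neutral amino acid carrier Slc43a2, the glutamine carrier Slc38a1 and the creatine carrier Slc6a8. The rise was 1.99-fold and the falls were 1.56- to 1.75-fold. These 5 calls are 8.20% of the 61 members, next to 7.78% of all genes (3.74% called higher and 4.05% lower), so the share called was close to the background. Neither this share nor the later ones was matched for signal: 31 of 61 members and 11127 of 18193 genes were not dim. Over all 61 the median log2 change was 0.015, next to 0.006 over all genes.

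Slc7a8 encodes the light chain LAT2, which exchanges neutral amino acids once bound to Slc3a2. Its signal (probe set 1417929_at) was 9.13, 9.27 and 9.32 in TNC + vehicle arrays, against 8.35, 8.18 and 8.22 in untreated arrays. The groups lay well apart, and within each group the arrays differed by less than 0.2. The log2 change was 0.99 ± 0.08 (SE; 95% interval 0.82 to 1.16; limma adjusted p = 2.10e-06), and it lay between 0.95 and 1.05 when any 1 array was left out.

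Other light chains of Slc3a2 differed by less. Slc7a6 (y+LAT2), an exchanger of cationic for neutral amino acids, was at 8.72 ± 0.07 in TNC + vehicle and 8.42 ± 0.08 in untreated cells (SD, n = 3 each), a log2 difference of 0.30 that passed the adjusted p (0.00876, limma) but not the fold threshold. Slc7a5 (LAT1), the high-affinity carrier of large neutral amino acids, was at 7.75 ± 0.14 in TNC + vehicle and 7.43 ± 0.05 in untreated cells, a difference of 0.32 (adjusted p = 0.0121). Both lay apart from untreated in every array. Slc7a7 (y+LAT1) was at 9.21 ± 0.08 in TNC + vehicle and 9.40 ± 0.04 in untreated cells, and its difference of -0.18 did not pass (adjusted p = 0.077). Slc7a10, another such light chain, was dim.

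The shared heavy chain did not pass the test. Slc3a2 was at 11.33, 11.16 and 11.23 in TNC + vehicle arrays, against 11.28, 11.33 and 11.25 in untreated arrays. These ranges overlapped, and the difference was -0.05 ± 0.07, with a 95% interval of -0.20 to 0.10 (adjusted p = 0.704). Slc3a1, the heavy chain best known from kidney, was dim, as were Slc7a9 and Slc7a13, the light chains that pair with it, and the log2 changes of these last 2 lay between -0.09 and 0.01.

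Slc7a1 (CAT1), the widely expressed importer of arginine and lysine, came closest to a call among those that missed it. Its signal was 8.72, 8.75 and 8.79 in TNC + vehicle arrays, against 8.16, 8.19 and 8.30 in untreated arrays. The groups did not overlap and the change was 0.54 ± 0.07, or 1.45-fold (adjusted p = 0.000103). A second probe set of the gene gave 0.66 and would have been called, and another, which was dim, gave 0.09.

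Among the carriers that fell, Slc36a1 (PAT1), a proton-coupled carrier of the lysosomal membrane known as a partner of mTORC1, had 8.19, 7.80 and 8.03 (1428793_at) in TNC + vehicle arrays, against 8.86, 8.84 and 8.75 in untreated arrays. Every TNC + vehicle array lay below every untreated one. The change was -0.81 ± 0.09 (95% interval -1.01 to -0.61; adjusted p = 5.05e-05). Slc36a4 (PAT4), a high-affinity carrier of proline and tryptophan, had 9.98, 9.78 and 9.75 in TNC + vehicle and 10.32, 10.31 and 10.22 in untreated arrays, a difference of -0.44 (adjusted p = 0.00126) that was short of 1.5-fold.

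Slc43a2 (LAT4) had 11.20, 10.89 and 11.01 (1439965_at) in TNC + vehicle arrays, against 11.79, 11.69 and 11.70 in untreated arrays. TNC + vehicle arrays were again all lower, and the change was -0.70 ± 0.08 (adjusted p = 7.85e-05). Its other 2 probe sets gave -0.68 and -0.28, so that 2 of 3 passed the threshold. The related Slc43a1 was dim and Slc43a3, which carries nucleobases, was at -0.03.

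The Slc38a family holds sodium-coupled carriers of glutamine and other small neutral amino acids. Of its 9 members 0 were called higher, next to 3.74% of all genes, and 1 lower, next to 4.05%. The latter was Slc38a1 (SNAT1). It had 8.82, 8.54 and 8.60 (1454764_s_at) in TNC + vehicle arrays, against 9.43, 9.40 and 9.26 in untreated arrays. The change was -0.71 ± 0.09 (adjusted p = 8.36e-05), and a second probe set gave -0.41, short of 1.5-fold. The suffix _s_at marks probes that match several transcripts, so this signal may hold other RNA.

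Slc38a2 (SNAT2), the carrier that many cells induce when amino acids run short, had 11.28, 11.35 and 11.21 in TNC + vehicle and 11.69, 11.78 and 11.75 in untreated arrays. Its difference of -0.46 ± 0.07 (adjusted p = 0.000363) was below the fold threshold, and its dimmer probe sets gave -0.11 and 0.07. Slc38a6 was at 10.72, 10.47 and 10.51 in TNC + vehicle and 10.20, 10.09 and 10.02 in untreated arrays. None of these arrays overlapped, and the difference of 0.46 ± 0.08 was short of 1.5-fold as well (adjusted p = 0.00151).

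Of the other members of this family that were not dim, Slc38a10 differed by -0.39 (adjusted p = 0.000921), while its other 6 probe sets lay between -0.26 and 0.16 with 4 of the same sign, and Slc38a9, the lysosomal arginine sensor, by -0.26 (adjusted p = 0.0254). Slc38a7, a lysosomal exporter of glutamine, differed by -0.16 and did not pass (adjusted p = 0.164), and neither did Slc38a3 at 0.11.

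Slc6a8, the creatine importer, had 9.34, 8.62 and 8.56 (1417116_at) in TNC + vehicle arrays, against 9.42, 9.65 and 9.36 in untreated arrays. The groups did not overlap, but TNC + vehicle replicate 1 lay just under the lowest untreated array. The change was -0.64 ± 0.17 (95% interval -1.01 to -0.27; adjusted p = 0.0162). It was -0.89 without that replicate (adjusted p = 4.48e-05), and the call was lost without TNC + vehicle replicate 2 (-0.53; adjusted p = 0.063), TNC + vehicle replicate 3 (-0.50; 0.0696) or untreated replicate 2 (-0.56; 0.0608). A second probe set gave -0.14. Replicate 1, in which the endothelial markers were high, exceeded the average of replicates 2 and 3 by 0.75 for this gene, the widest such gap in either direction among the 61 members. Over the members these gaps ran from -0.33 (Slc36a3) upward with a median of -0.02. Replicate 1 was also the highest of the TNC + vehicle arrays in the other 3 members that fell, with gaps of 0.27 for Slc36a1, 0.26 for Slc43a2 and 0.25 for Slc38a1. Slc7a8, the member that rose, was lowest in replicate 1 (gap -0.17), whereas Slc38a6, not called here, was highest in it (0.23). On the main axis of variation over all probe sets (first principal component, 73.2% of the variance), TNC + vehicle replicates 1 to 3 lay at 42.4, 49.7 and 49.3. Untreated arrays lay at -23.8, -18.2 and -21.4, so replicate 1 was nearest to them. Whether the endothelial signal or the position of this array bears on the gaps was not tested.

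Of the remaining Slc6a genes, Slc6a6, the taurine importer, had 13.13, 13.12 and 13.03 in TNC + vehicle and 13.36, 13.41 and 13.45 in untreated arrays, a difference of -0.31 (adjusted p = 0.00424) without overlap but short of 1.5-fold. The glycine importer Slc6a9 differed by 0.25 (adjusted p = 0.0399), and its other probe set by -0.16. With 1 array left out its limma adjusted p lay between 0.0385 and 0.177. Slc6a12, an importer of betaine and GABA, differed by 0.17 (adjusted p = 0.15). The carriers of noradrenaline, dopamine and serotonin (Slc6a2, Slc6a3 and Slc6a4) had mean signals of 6.36 to 6.96 and differed by -0.09 to 0.10.

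The Slc1a family gave no call among its 7 members, where 7.78% of all genes were called. The plasma membrane glutamine exchanger Slc1a5 (ASCT2) was at 7.82, 7.91 and 7.78 in TNC + vehicle arrays, against 7.76, 7.93 and 7.85 in untreated arrays. These values overlapped, with a difference of -0.01 (95% interval -0.16 to 0.15). Its relative Slc1a4 differed by 0.06, and the 5 glutamate carriers (Slc1a1, Slc1a2, Slc1a3, Slc1a6 and Slc1a7), known from brain and epithelia, had mean signals of 6.46 to 7.07 and differed by -0.04 to 0.08.

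Counted at any fold, 15 of 61 members passed the adjusted p, 6 higher and 9 lower, or 24.6% next to 28.1% of all genes. The TNC + vehicle and untreated arrays did not overlap in 21 members (34.4%), next to 42.3% of all genes. Of the 30 dim members 0 passed by limma at any fold (lowest adjusted p 0.236), 0 had an unadjusted p under 0.05, and their log2 changes ran from -0.13 to 0.13. The shares of all dim genes were not counted, so these counts are a description only.

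**Figure D1:**
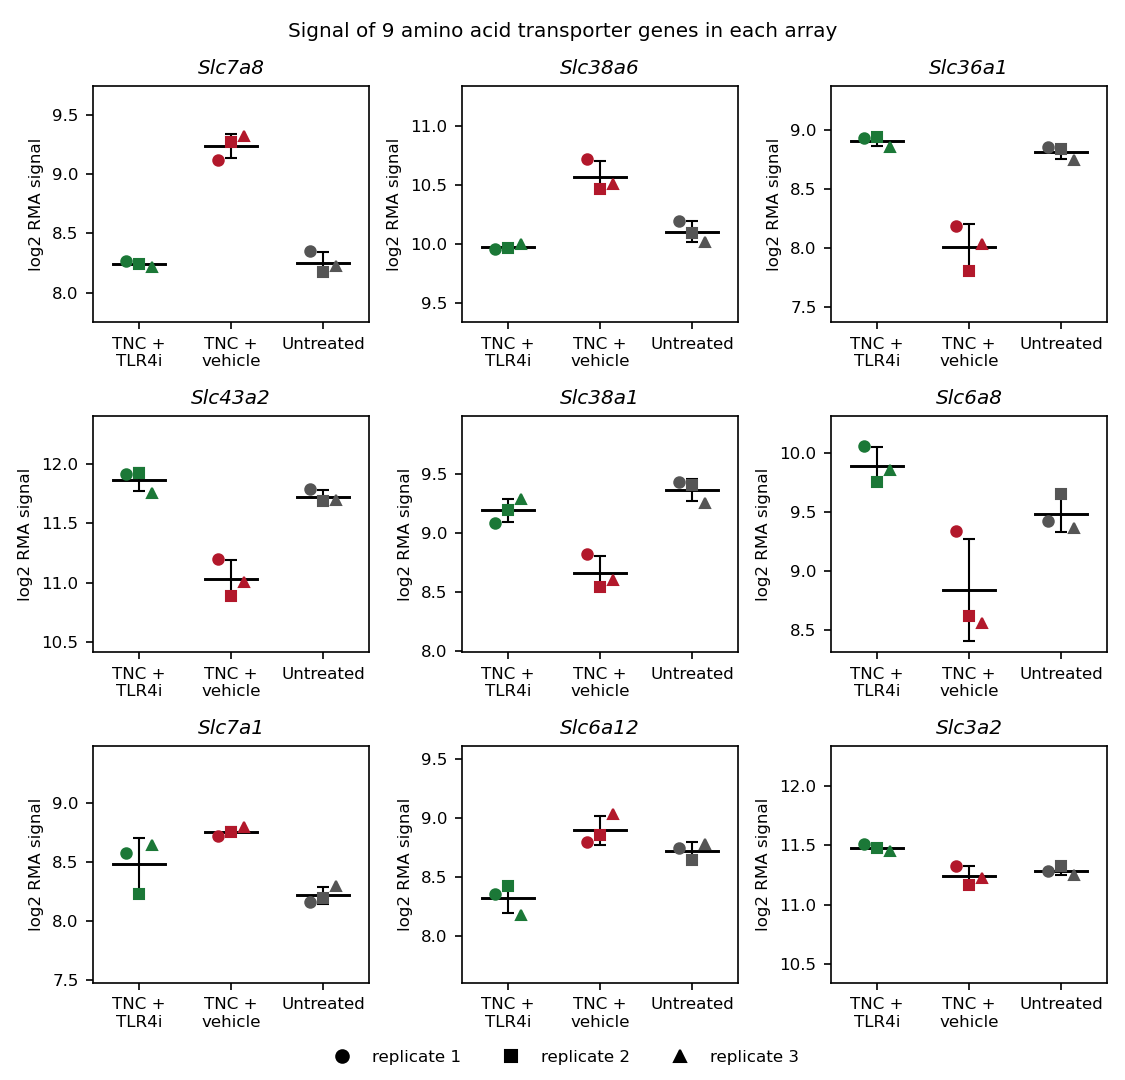
Log2 RMA signal (y axis, 2 log2 units in each panel) of 9 members in TNC + TLR4i, TNC + vehicle and untreated arrays (x axis). Points are arrays, with a shape for each replicate, wide lines are means and bars are SD (n = 3). Slc7a8 is high in the 3 TNC + vehicle arrays (9.13 to 9.32) and Slc36a1 and Slc43a2 are low there, while Slc3a2 lies between 11.16 and 11.52 throughout.

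The second comparison asked how blocking TLR4 altered the response to TNC. Relative to TNC + vehicle, TNC + TLR4i macrophages had 3 members higher, Slc6a8, Slc36a1 and Slc43a2, and 2 lower, Slc7a8 and Slc38a6. The changes were between 1.5- and 2.07-fold. These 5 are 8.20% of the members next to 8.30% of all genes (4.25% called higher and 4.05% lower), and the median log2 change was 0.028 next to 0.002 over all genes. This comparison and the first share the TNC + vehicle arrays, so that an array error there moves both in opposite directions.

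Slc7a8 had 8.27, 8.24 and 8.22 in TNC + TLR4i arrays, against 9.13, 9.27 and 9.32 in TNC + vehicle arrays, and fell by 1.00 ± 0.07 on the log2 scale (adjusted p = 7.33e-07). Slc36a1 had 8.93, 8.94 and 8.85 in TNC + TLR4i arrays, against 8.19, 7.80 and 8.03 in TNC + vehicle arrays, and rose by 0.90 ± 0.09 (adjusted p = 1.46e-05). Slc43a2 had 11.92, 11.93 and 11.76 in TNC + TLR4i arrays, against 11.20, 10.89 and 11.01 in TNC + vehicle arrays, and rose by 0.84 ± 0.09 (adjusted p = 1.99e-05). In these 3 genes every TNC + TLR4i array lay clear of every TNC + vehicle array, and each kept its call whichever array was left out.

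Slc6a8 had 10.06, 9.75 and 9.85 in TNC + TLR4i arrays, against 9.34, 8.62 and 8.56 in TNC + vehicle arrays, a rise of 1.05 ± 0.17 (adjusted p = 0.000541). Its other probe set gave 0.42, short of 1.5-fold. Without TNC + vehicle replicate 1 the rise was 1.30 (adjusted p = 1.42e-06).

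Slc38a6 had 9.96, 9.97 and 10.00 in TNC + TLR4i arrays, against 10.72, 10.47 and 10.51 in TNC + vehicle arrays. Its fall, -0.59 ± 0.08 (adjusted p = 0.000129), was 1.5-fold and stood at the threshold: it was below it without TNC + vehicle replicate 1 (-0.51) or without TNC + TLR4i replicate 1 (-0.58) or 2 (-0.58). Just outside lay Slc6a12, with 8.36, 8.42 and 8.18 in TNC + TLR4i against 8.80, 8.85 and 9.03 in TNC + vehicle arrays, a difference of -0.58 ± 0.09 or 1.49-fold (adjusted p = 0.000339). It was called without TNC + TLR4i replicate 1 (-0.60) or 2 (-0.63) and without TNC + vehicle replicate 1 (-0.62) or 2 (-0.60). Slc38a1, called in the first comparison, had 9.09, 9.20 and 9.29 in TNC + TLR4i against 8.82, 8.54 and 8.60 in TNC + vehicle arrays, and its difference of 0.53 ± 0.09 (adjusted p = 0.000668) was short of 1.5-fold. It was called without TNC + vehicle replicate 1 (0.62).

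Below the fold threshold, Slc36a4 differed by 0.51, Slc38a2 by 0.42, Slc6a6 by 0.34 and Slc38a10 by 0.34 between TNC + TLR4i and TNC + vehicle (adjusted p = 0.000375, 0.000577, 0.0024 and 0.00353). Slc7a6 differed by -0.25 (adjusted p = 0.0213). The heavy chain Slc3a2 was at 11.52, 11.48 and 11.45 in TNC + TLR4i arrays, above 11.33, 11.16 and 11.23 in TNC + vehicle arrays, a difference of 0.24 ± 0.07 (adjusted p = 0.0241). With 1 array left out, the limma adjusted p lay between 0.0269 and 0.0824 for Slc7a6 and between 0.0147 and 0.0908 for Slc3a2.

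The cationic carrier Slc7a1 was the least even in TNC + TLR4i arrays, at 8.58, 8.23 and 8.64, the widest spread of any member in that group (SD 0.22). Replicate 2 lay with the untreated arrays and the others between them and the TNC + vehicle arrays. Its difference from TNC + vehicle, -0.27, did not pass (95% interval -0.49 to -0.06; adjusted p = 0.0677), and Slc7a5 likewise gave -0.11 (-0.31 to 0.10; adjusted p = 0.489). In all, 14 members passed the adjusted p at any fold, 9 higher and 5 lower, or 23.0% next to 28.5% of all genes, and 24 did not overlap (39.3%, next to 42.2%). Of the 30 dim members 0 passed here (lowest adjusted p 0.0658), with 1 at an unadjusted p under 0.05. Again the shares of all dim genes were not counted.

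**Figure D2:**
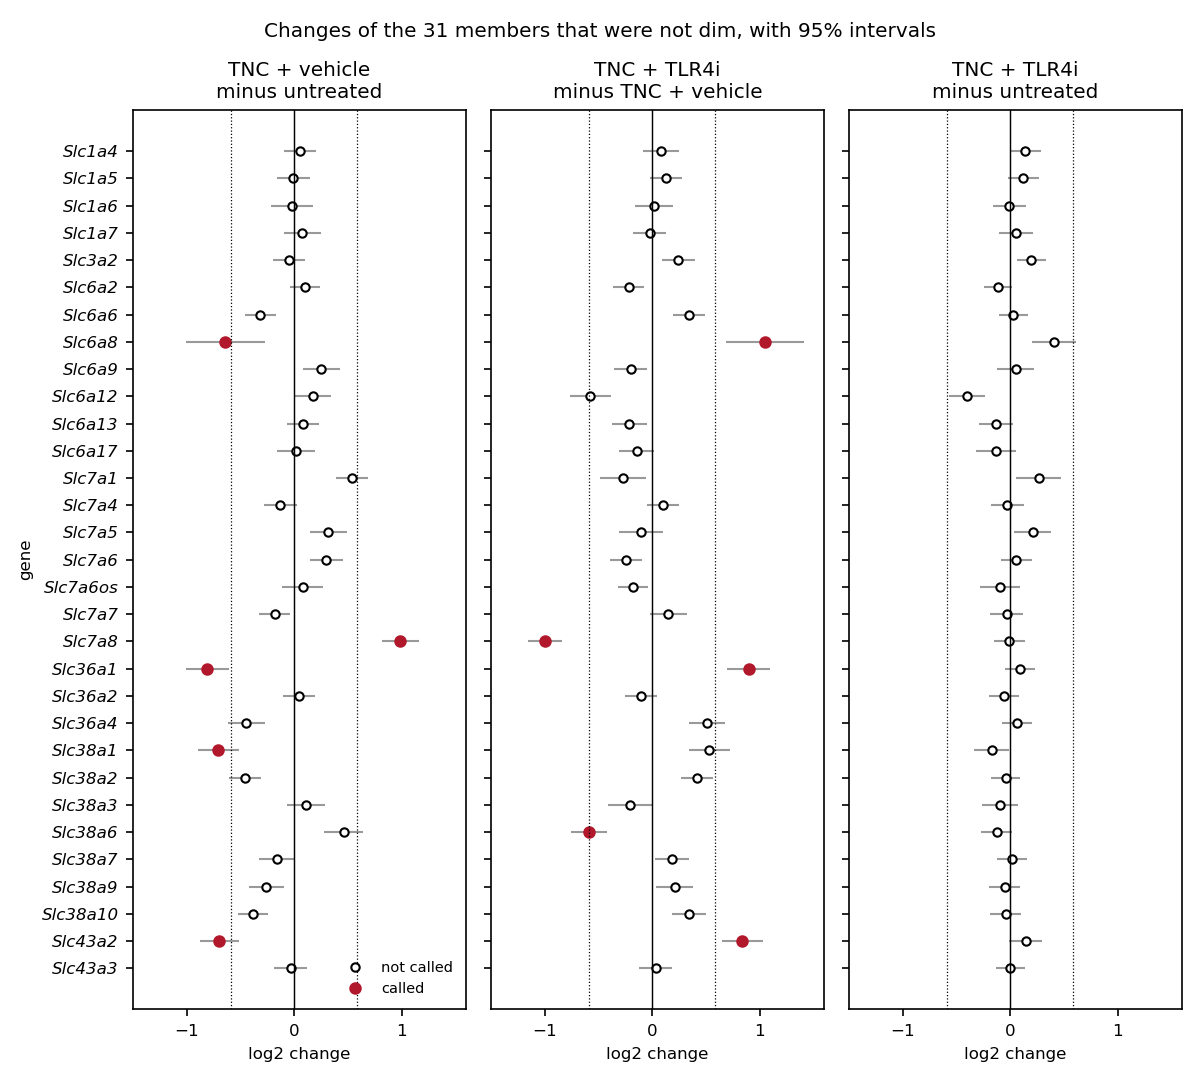
Log2 change (x axes) of the 31 members that were not dim (y axis) in each of the 3 comparisons. Points are limma estimates with 95% intervals, filled where called, and dotted lines mark 1.5-fold. Calls number 5, 5 and 0 from left to right, and Slc7a8 lies at 0.99, -1.0 and -0.01.

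The third comparison set TNC + TLR4i against untreated cells, and so asked what TNC and inhibitor together left behind. No member was called, where 0.258% of all genes were (0.0605% higher and 0.198% lower). An unadjusted limma p under 0.05 was found for 6, with 4 above and 2 below untreated cells. The share of all genes at that p was not counted, so the 6 are not read as a remaining change. The median log2 change was 0.0003 next to 0.009 over all genes. For Slc7a8 the difference was -0.01 (95% interval -0.16 to 0.14), for Slc36a1 0.09 (-0.05 to 0.23) and for Slc43a2 0.14 (-0.01 to 0.29).

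Slc6a12 was the member that passed the adjusted p here, where 0.803% of all genes did. It had 8.36, 8.42 and 8.18 in TNC + TLR4i arrays, against 8.74, 8.64 and 8.78 in untreated arrays, with no overlap and a difference of -0.40 ± 0.08 (adjusted p = 0.0343), or 1.32-fold. When 1 array was left out, its adjusted p lay between 0.0327 and 0.157. Slc6a8 lay at 10.06, 9.75 and 9.85, above 9.42, 9.65 and 9.36 in untreated arrays, a difference of 0.41 ± 0.09 that did not pass (adjusted p = 0.0961).

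Slc3a2 was higher by 0.20 (95% interval 0.06 to 0.33) and Slc7a1 by 0.26 (0.05 to 0.48), neither of which passed (adjusted p = 0.341 and 0.454). Groups did not overlap in 8 members (13.1%), next to 15.2% of all genes. Over the 61 members the 95% intervals reached from -0.57 at the lowest (Slc6a12) to 0.61 at the highest (Slc6a8), and that of Slc6a8 was the only one of the 61 to reach a change of 1.5-fold.

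Of the 61 members, 30 had more than 1 probe set for which the table names a single gene. Of the 6 members called in some comparison, Slc7a8 and Slc36a1 rest on 1 probe set each. In the other 4, each further probe set had the sign of the one used in each comparison in which the member was called. Between TNC + vehicle and untreated cells, at least 1 further probe set differed in sign in 11 of the 30 members, Slc1a2, Slc1a3, Slc6a2, Slc6a9, Slc6a14, Slc6a19, Slc7a6os, Slc7a13, Slc7a14, Slc38a2 and Slc38a10. Between TNC + TLR4i and TNC + vehicle it did so in 14, and among these Slc6a2, Slc38a2 and Slc38a10 had passed the adjusted p. Averaging all probe sets of a gene ended the calls of Slc38a1 (-0.56), Slc43a2 (-0.56) and Slc6a8 (-0.39) for TNC + vehicle against untreated, and that of Slc38a6 (-0.51) for TNC + TLR4i against TNC + vehicle.

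**Figure D3:**
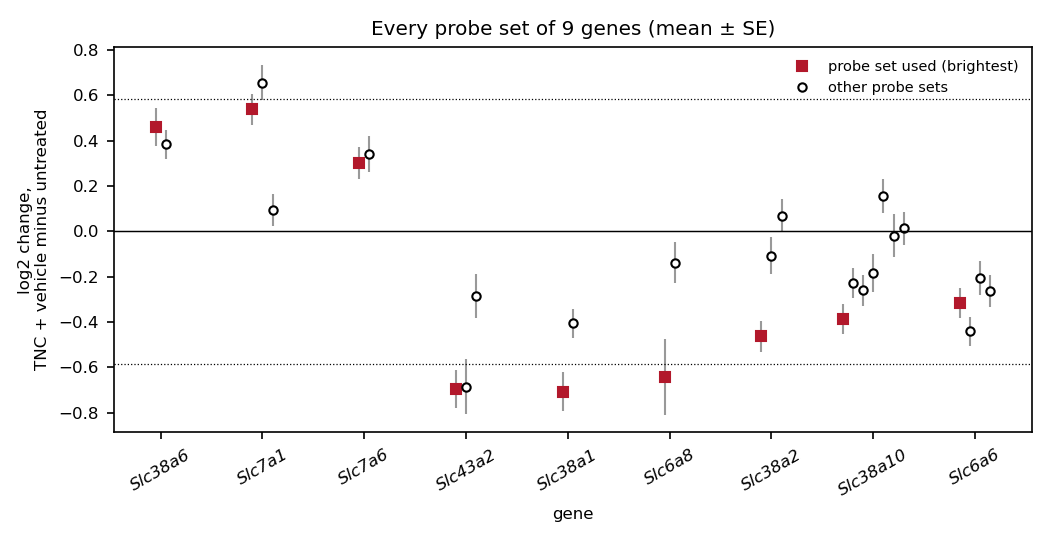
Log2 change between TNC + vehicle and untreated arrays (y axis) for every probe set of 9 members (x axis), with SE. Squares are the brightest probe set, which represents the gene, circles are the others and dotted lines mark 1.5-fold. The 3 probe sets of Slc43a2 lie at -0.70, -0.68 and -0.28, and the 2 of Slc6a8 at -0.64 and -0.14.

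Over the 9 arrays, the members whose signal followed Slc7a8 most closely were Slc7a6 (Pearson r = 0.93) and Slc38a6 (0.92), and the genes that did so among all measured were Vamp5, Dnaja2, Rab20, Batf and Mthfd2 (0.995 to 0.997). These correlations are a description over 9 arrays in 3 groups, and rest largely on the TNC + vehicle arrays that all these genes share.

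A list of 25 amino acid carriers outside the named families, of which 24 were measured, was read in the same way. In TNC + vehicle relative to untreated cells, 4 rose (16.7%, next to 3.74% of all genes) and 0 fell (next to 4.05%). The median log2 change was -0.09, next to 0.006 over all genes, and 10 lay below untreated cells at an unadjusted limma p under 0.05. Slc15a3, a lysosomal carrier of histidine and small peptides, had 12.00, 12.07 and 12.12 in TNC + vehicle arrays, against 10.74, 10.89 and 10.59 in untreated arrays (1.32 ± 0.08; adjusted p = 3.62e-07). Slc16a10 (TAT1), which moves aromatic amino acids, had 11.07, 11.17 and 11.13 in TNC + vehicle arrays, against 9.91, 10.10 and 9.89 in untreated arrays (1.16 ± 0.07; 4.47e-07). The mitochondrial aspartate-glutamate exchanger Slc25a12 rose by 1.06 and the mitochondrial glutamate carrier Slc25a22 by 0.66. With TLR4i, Slc15a3 (-1.38), Slc16a10 (-1.13) and Slc25a12 (-1.02) fell relative to TNC + vehicle, whereas Slc25a22 differed by -0.56, short of 1.5-fold. These 3 are 12.5% of the list, next to 4.05% of all genes, and 0 rose, next to 4.25% (10 lay above TNC + vehicle at an unadjusted limma p under 0.05). Between TNC + TLR4i and untreated cells 0 of the 24 were called, next to 0.258% of all genes (1 at an unadjusted limma p under 0.05).

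Of 33 genes through which mTORC1 senses amino acids, 31 were measured, and 5 fell with TNC (16.1%, next to 4.05% of all genes) while 0 rose (next to 3.74%, with 4 above untreated cells at an unadjusted limma p under 0.05). The median log2 change was -0.17. The genes that fell were Rragd (-0.93), a Rag GTPase, Fnip2 (-0.86) and Flcn (-0.74), which together act on the Rag GTPases, Lamtor4 (-0.76), a subunit of their lysosomal anchor, and Sesn1 (-0.69), a leucine sensor family member. Flcn had 9.49, 9.32 and 9.42 in TNC + vehicle arrays, against 10.16, 10.16 and 10.13 in untreated arrays (adjusted p = 8.57e-06). Rragd was less even, with 7.58, 6.84 and 7.27 in TNC + vehicle against 8.05, 8.18 and 8.26 in untreated arrays (adjusted p = 0.000554). With TLR4i, 4 of these were higher than in TNC + vehicle, Fnip2 (1.04), Rragd (0.94), Lamtor4 (0.80) and Flcn (0.78), while Sesn1 differed by 0.47, short of 1.5-fold. These 4 are 12.9% of the list, next to 4.25% of all genes, and 0 were lower, next to 4.05% (3 at an unadjusted limma p under 0.05). Between TNC + TLR4i and untreated cells 0 of the 31 were called, next to 0.258% of all genes (2 at an unadjusted limma p under 0.05). Both lists were chosen with earlier results known and their shares were not tested. Their counts at an unadjusted p have no share of all genes beside them and are a description only. Promoters were at hand for 27 of the 31, and 4 held CACGTG, where 8.09% of all genes did. Of the 5 genes that fell with TNC 1 held it, Lamtor4, and the other 3 matches were in Rragc, Lamtor1 and Fnip1, which were not called.

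**Figure D4:**
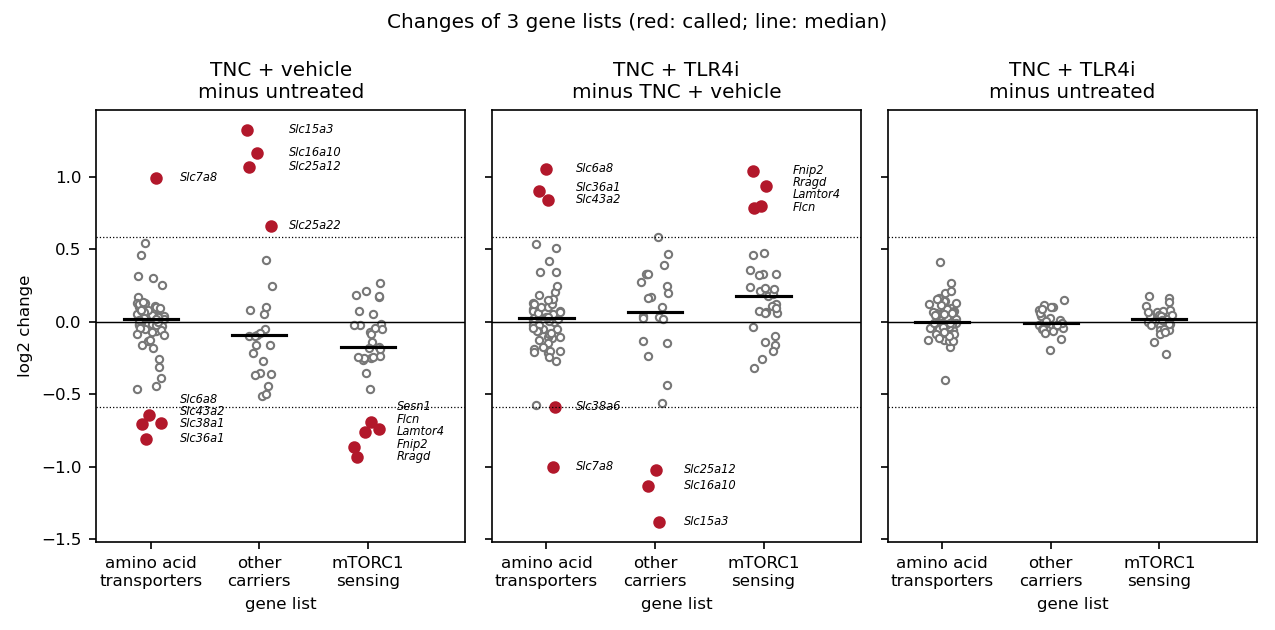
Log2 changes (y axes) in the 61 amino acid transporter genes, 24 other amino acid carriers and 31 genes of mTORC1 amino acid sensing (x axes) for the 3 comparisons. Points are genes, red and named where called, lines are medians and dotted lines mark 1.5-fold. With TNC the called genes of the sensing list all lie below 0 and those of the other carriers all above it, and no gene of the 3 lists is called between TNC + TLR4i and untreated.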

How the data were processed

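Labelled RNA of 9 macrophage cultures was hybridized to whole-genome Affymetrix mouse arrays. The authors normalized the arrays by RMA in Chipster (background correction, quantile normalization across arrays, summary per probe set) and deposited log2 values; the log base was checked from their range, 5.44 to 14.69. Quantile normalization hides any change in total RNA, and the number of arrays limits the precision.

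Of 45101 probe sets, 64 array controls were left out. The platform annotation gave 34945 a single gene, 932 several and 9160 none; 0 symbols changed through RefSeq identifiers. A gene was its brightest single-gene probe set over the 9 arrays. Two-sided tests used the moderated linear model of limma (version 3.58.1, under R 4.3.3) on the 6 arrays of each pair, with Benjamini-Hochberg adjustment over all 45037 probe sets, after the study's two-group empirical Bayes test. The fit was tested on simulated data. The members, context lists and markers were chosen with earlier results of these data known. The text names members called in a comparison, the heavy chains, up to 8 bright members without a call, up to 4 per comparison past the adjusted p alone, members whose probe sets disagree in sign with TNC, and up to 4 called genes of each context list; other members and Sesn1 are named to account for the list. Alternatives are given in the closing section.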

Additional observations from a re-analysis of the deposited data

How the results depend on the processing

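For TNC + vehicle against untreated (1 member higher, 4 lower), the counts were 6 and 9 with no minimum fold, 0 and 0 at a minimum of 2-fold, 1 and 0 with treat (limma's test against 1.5-fold), and 1 and 1 with all probe sets of a gene averaged. For TNC + TLR4i against TNC + vehicle (3 higher, 2 lower), they were 9 and 5 with no minimum fold, 1 and 0 at 2-fold, 0 and 1 with treat, and 3 and 1 with averaged probe sets. Against untreated cells, TNC + TLR4i had 0 higher and 1 lower with no minimum fold and 0 of either in every other alternative run. Leaving out 1 array gave 1 higher and 3 to 4 lower, 3 to 4 higher and 2 to 3 lower, and 0 of either in the 3 comparisons, with median changes of -0.0025 to 0.025, -0.0016 to 0.045 and -0.0043 to 0.015. Over all members and alternatives, 30 calls were lost, 27 gained and 0 turned direction. With an adjusted p under 0.01, or eBayes with trend and robust settings (adjusted p = 0.139), Slc6a8 was no longer lower with TNC. Fitting all 9 arrays at once, dropping dim probe sets, centring each array on its median and the replicate block changed no call. Cyclic loess and array weights added Slc6a12 (-0.62 and -0.59) as lower with TLR4i, and array weights removed Slc38a6 (-0.58).

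Same-numbered arrays of different groups deviated together in 1 of 9 pairs (r from -0.098 to 0.22, over 0.1 in 1), and an array correlated best with its own number in 6 of 18 cases. The numbers were not read as pairs, since the study's two-group test does not use them. The replicate block gave 1 and 4, 3 and 2, and 0 and 0 members higher and lower.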
